A study of Mus musculus with 12 samples.

Results

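The heat shock and DnaJ chaperone genes were followed in whole somatosensory cortex of male C57BL/6 mouse pups on postnatal day 7 (P7). Members were taken by symbol: the Hspa, Hspb, Hspd, Hspe, Hsph and Hsp90 genes and the Dnaja, Dnajb and Dnajc genes, apart from Hspa5, Dnajb9 and Dnajc3, with at least 10 counts over all libraries. Of 69 matching symbols 64 were kept, out of 24452 symbols in the data. The member just inside the minimum was Dnajc22 with 12.0 counts, and the symbol just outside it was Hspb7 with 9.0. The other symbols left out were Hspb9 with 1.0 count and Dnajb7, Dnajb8 and Dnajc5g, listed at 0 in every library.

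The 12 libraries fall into 4 groups of 3. They are wildtype (WT) mice injected with saline, WT mice injected with ethanol, p53 knockout (KO) mice with saline and p53 KO mice with ethanol, all by intraperitoneal injection and all collected 8 hours after the last one. Each library came from 1 mouse. The KO and WT pups came from crosses of mice heterozygous for a germline disruption of Trp53, so that every cell of a KO pup, not neurons alone, carried it. The question was how P7 ethanol exposure changes cortical transcripts, and whether that change depends on p53.

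HSP70 chaperones bind exposed hydrophobic stretches of client proteins in a cycle driven by ATP. DnaJ proteins, also called J proteins, bring clients to HSP70 and start ATP hydrolysis, and HSP110 proteins release the nucleotide afterwards. HSP90 finishes the folding of kinases and receptors, small heat shock proteins hold unfolded chains without ATP, and the chaperonin of Hspd1 and Hspe1 folds imported proteins inside mitochondria. Many of these genes are switched on by the heat shock factor Hsf1 under stress, while in neurons the constitutive HSP70 Hspa8 works with Dnajc6 to strip clathrin from vesicles and with Dnajc5 at synaptic vesicles.

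Total counts ran from 719735 to 17066392 per library, and the lowest 2 were KO ethanol replicate 12 (719735) and WT saline replicate 3 (1953154), whose names start with L where the others start with P. WT saline replicate 1 had the lowest TMM scaling factor (0.5638). Trp53 ran from 3.67 to 26.2 CPM (counts scaled by TMM-adjusted library size) in WT saline and from 11.1 to 27.6 CPM in KO saline libraries. Counts over the whole Trp53 transcript include the part of the gene outside the disruption, so they do not check the genotype labels. Neuronal markers summed to 8550 to 9600 CPM in WT saline, 4540 to 7510 CPM in WT ethanol, 6470 to 8080 CPM in KO saline and 5390 to 11200 CPM in KO ethanol libraries, so that every WT saline library lay above all WT ethanol and KO saline libraries. Of the 11, Gad1 and Gad2 were called higher and Tubb3 lower in WT ethanol mice, and Gad2 higher and Tubb3 lower in KO saline mice. Against WT saline, 2 of the 11 had positive and 9 negative log2 fold changes in WT ethanol mice (median -0.49). In KO saline mice 6 were positive and 5 negative (median 0.10), so the lower sum there did not follow most of the list. Markers of red blood cells summed to 337 to 1320 CPM in WT saline, 50.3 to 145 CPM in WT ethanol, 35.9 to 99.3 CPM in KO saline and 29.0 to 765 CPM in KO ethanol libraries, and all 5 were called lower in WT ethanol and in KO saline than in WT saline. Microglial markers summed to 76.1 to 447 CPM in WT saline, 123 to 230 CPM in WT ethanol and 107 to 226 CPM in KO saline libraries, with 3 of 7 lower in WT ethanol and 4 of 7 lower in KO saline mice. Choroid plexus markers summed to 3.6 to 120 CPM in WT saline and 22.2 to 5020 CPM in WT ethanol libraries, with 3 of 5 higher, and to 27.1 to 2250 CPM in KO saline libraries, with 2 of 5 higher. Oligodendrocyte-lineage markers summed to 190 to 706 CPM, astrocyte markers to 1130 to 3030 CPM and endothelial and mural markers to 183 to 384 CPM over all libraries. Of these, Pdgfra, Flt1 and Kdr were called higher in both comparisons with WT saline mice, and in KO saline mice Olig2 was also higher and Aldoc and Tagln lower. No marker was at 0 throughout a group. The part of any of these in the results below was not tested, and in bulk tissue fewer cells of a type and less RNA per cell cannot be told apart.

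Levels of the members were compared between genes as RPKM, which divides by transcript length, in the deposited values summed per symbol. Hspa8, the constitutive cytosolic HSP70, stood at a mean of 1480 RPKM over the 12 libraries. Next came the cytosolic HSP90 genes, Hsp90ab1 at 584 RPKM and Hsp90aa1 at 566 RPKM, whose ranges (86.0 to 1240 and 199 to 1280 RPKM) overlapped. Hspe1, the small lid of the mitochondrial chaperonin, had 172 RPKM. The major J protein partner of cytosolic HSP70, Dnaja1, and the antiaggregation J protein Dnajb6 followed at 166 and 165 RPKM. Hspe1, Dnaja1 and Dnajb6 overlapped in range (111 to 284, 88.3 to 294 and 92.8 to 261 RPKM), so their order is not resolved. A total of 7 members averaged at least 100 RPKM and 6 averaged under 1 RPKM, and the median member stood at 14.0 RPKM.

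At the bottom were the strictly stress-inducible HSP70 genes. Hspa1a ranged from 0 to 1.02 RPKM and Hspa1b from 0 to 0.937 RPKM, with at most 58 and 15 counts in any library. Both were listed at 0 in WT saline replicate 3 and KO ethanol replicate 12, where a count of 0 allows up to 1.54 and 5.01 CPM (3 counts, counting error only). With or without ethanol, the cortex held abundant constitutive chaperone transcripts and few stress-inducible Hspa1 transcripts. All 64 members were above 0 in KO ethanol replicate 18, and 56 of them in the shallow KO ethanol replicate 12.

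**Figure D1:**
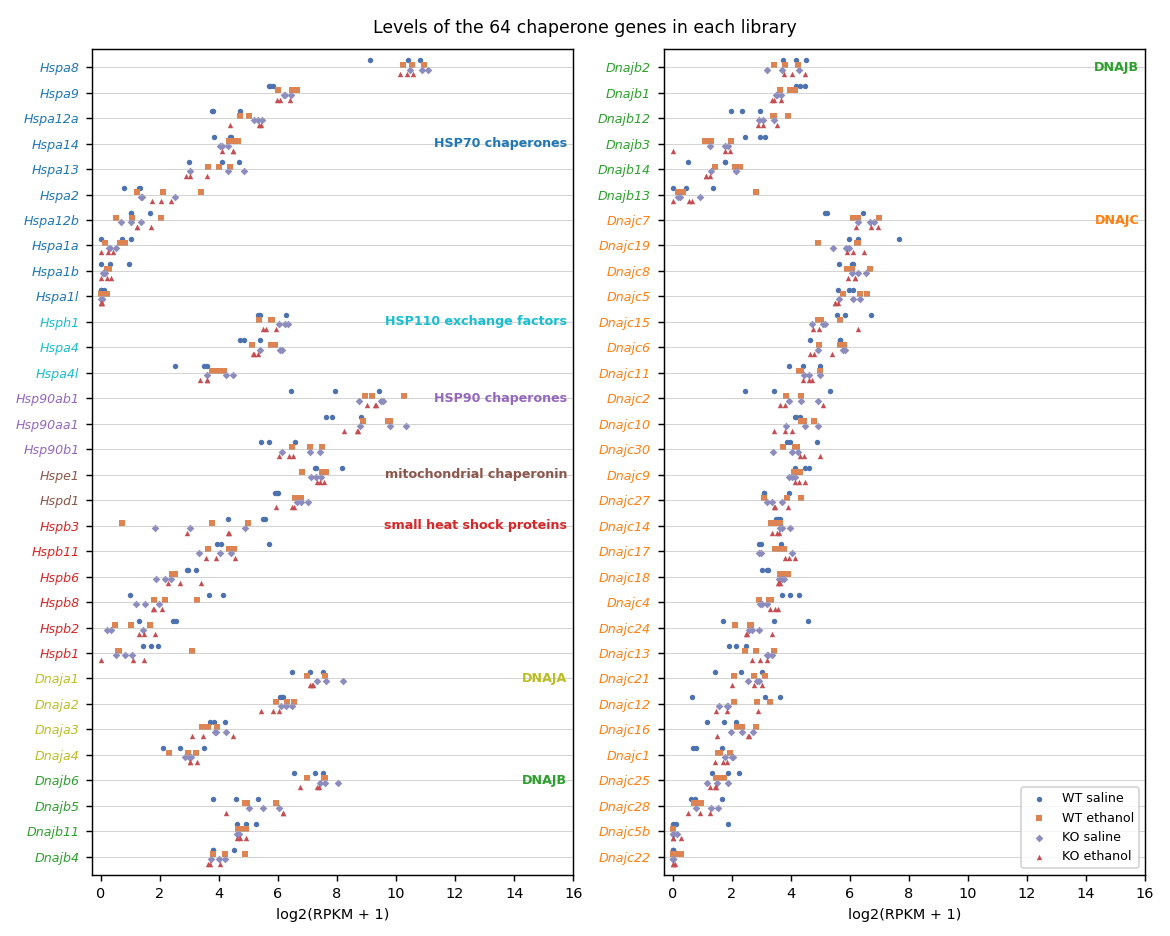
RPKM of the 64 members on a log2(RPKM + 1) axis, 1 point per library, coloured by group, with symbols coloured by role. Hspa8 and the cytosolic HSP90 genes sit at the right in every group, and Hspa1a, Hspa1b and Hspa1l sit at the left.

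The gap between the genes of the mitochondrial chaperonin is shown because it holds a heat shock element within a promoter that both genes share. Hspd1 and Hspe1 lie head to head on chromosome 1 (mm10, GRCm38), Hspe1 on the plus strand from 55088148 to 55091317 and Hspd1 on the minus strand from 55077834 to 55087932. The Hspe1 start site and the Hspd1 start site used here are 216 bases apart, so that their promoter windows share 285 bases. Another RefSeq promoter window of Hspd1 (chr1:55088194-55088493) does not hold the element and was not used for this gap. The 215 bases between the start sites (chr1:55087933-55088147, plus strand, RefSeq on GRCm38.p6) hold this element, the inverted repeat of GAA units that binds heat shock factors, in capitals:
Hspd1 to Hspe1: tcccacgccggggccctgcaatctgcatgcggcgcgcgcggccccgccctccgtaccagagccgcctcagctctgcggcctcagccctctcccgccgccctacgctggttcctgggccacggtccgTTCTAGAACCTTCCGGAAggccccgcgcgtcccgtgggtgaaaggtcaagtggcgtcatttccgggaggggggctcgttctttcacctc
The element runs over 18 bases and starts 89 bases before the Hspe1 start site.

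A 3-unit element, GAANNTTCNNGAA or TTCNNGAANNTTC on either strand, was found in the promoter window (250 bases before to 50 after a start site) of 4 of the 50 members with a RefSeq promoter, or 8.0%. Of all 27025 genes with a promoter 0.662% held it. Members without a RefSeq promoter were not searched. The members with the element were Hspd1 and Hspe1, which share the same stretch shown above, Dnajb6 and the HSP110 gene Hsph1, in which the match lies after the start site. In Dnajb6 (chr5:29735837-29735879, plus strand) it starts 46 bases before the start site:
Dnajb6: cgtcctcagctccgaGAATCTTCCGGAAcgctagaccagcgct
The 2-unit motif GAANNTTC, which the 3-unit element contains, was in 13 of 50 member promoters (26.0%), among them those of Hspa1a, Hspa1b and Hspb1, and in 9.04% of all promoters, and TTCNNGAA was in 6 of 50 (12.0%) and 9.6%. These are matches of letters, and no binding was measured.

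In the comparison of WT ethanol with WT saline mice, 12 of the 61 members that passed the low-count filter were called at the discovery level of the study, an adjusted p under 0.30, and 6 were higher and 6 lower after ethanol. Dnajc22, Dnajc5b and Hspa1l did not pass the filter. Of all 14739 genes tested 22.5% were called in this comparison, with 12.1% higher and 10.4% lower, so the members' 19.7% is near the background. At an unadjusted p under 0.05 there were 12 members against 18.3% of all genes, and at an adjusted p under 0.05 there were 0 members against 0.0746% of all genes (11 genes, edgeR). The median log2 fold change was 0.06 over the members and 0.06 over all genes. Without TMM factors the median of all genes moved by 0.46, and 14 members were called higher and 3 lower.

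The genes that rose in WT ethanol mice were J proteins of internal membranes and 1 HSP70. Dnajb12, which works with HSP70 at the endoplasmic reticulum (ER) membrane in the degradation of misfolded proteins, had 4.59, 13.9 and 7.06 CPM in WT saline and 27.2, 19.6 and 19.1 CPM in WT ethanol libraries. The groups did not overlap, and Dnajb12 was higher by a log2 fold change of 1.43 ± 0.44 (SE, adjusted p = 0.192). Dnajc13, a J protein of endosomes that supports sorting and recycling of membrane proteins, had 24.1, 38.6 and 19.6 CPM in WT saline and 56.2, 38.7 and 85.9 CPM in WT ethanol libraries. Its groups were separated only narrowly, by WT ethanol replicate 5, with a log2 fold change of 1.15 ± 0.38 (adjusted p = 0.203), and without WT ethanol replicate 14 the value was 0.76 (adjusted p = 0.379).

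Dnajc18, a little-studied J protein of the ER membrane, was the tightest of the genes that rose. It had 44.8, 50.4 and 38.5 CPM in WT saline and 79.8, 68.4 and 70.1 CPM in WT ethanol libraries, a log2 fold change of 0.71 ± 0.28 (adjusted p = 0.22). All 3 ethanol libraries lay above all 3 saline libraries. Dnajc1, an ER membrane J protein that contacts the ribosome, was higher by 1.44 ± 0.55 on the log2 scale (adjusted p = 0.216), from 6.05 ± 5.02 CPM (SD, n = 3) in saline to 15.2 ± 2.48 CPM in ethanol libraries. Dnajc16, also of the ER membrane, went from 8.59 ± 4.26 to 20.8 ± 6.59 CPM (1.27 ± 0.53, adjusted p = 0.238). Hspa2, an HSP70 best known from spermatogenesis, had 3.12, 1.03 and 3.42 CPM in WT saline and 29.1, 9.45 and 4.04 CPM in WT ethanol libraries. Most of its log2 fold change of 2.39 ± 0.75 (adjusted p = 0.195) came from WT ethanol replicate 4, and without that library it was 1.29 (adjusted p = 0.526).

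The genes that fell in WT ethanol mice included mitochondrial members. Hspe1 had 754, 138 and 184 CPM in WT saline and 69.4, 162 and 142 CPM in WT ethanol libraries, a log2 fold change of -1.53 ± 0.58 (adjusted p = 0.215). The groups overlapped, and only WT saline replicate 1 stood apart. Without it the log2 fold change of Hspe1 was -0.40 (adjusted p = 0.726). Hspd1, the partner across the shared promoter shown above, had 292, 171 and 206 CPM in WT saline and 198, 262 and 253 CPM in WT ethanol libraries, with a log2 fold change of 0.09 ± 0.33 (adjusted p = 0.9). In the deposited RPKM it had 61.2, 62.6 and 58.5 in WT saline and 102, 95.3 and 108 in WT ethanol libraries, without overlap. Over the alternative settings its value ran from -0.14 to 0.73, so it depended on the scale.

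Dnajc19, a J protein of the mitochondrial inner membrane, followed the same libraries. It had 352, 61.7 and 62.6 CPM in WT saline and 21.9, 66.8 and 56.9 CPM in WT ethanol libraries (log2 fold change -1.71 ± 0.64, adjusted p = 0.215), and -0.38 remained without WT saline replicate 1. Dnajc15, its relative at the protein import motor, had 167, 42.7 and 44.4 CPM in WT saline and 19.9, 38.5 and 20.4 CPM in WT ethanol libraries (-1.69 ± 0.62, adjusted p = 0.214). Its groups did not overlap, and without WT saline replicate 1 the value was -0.75. Dnajc24, which acts in the synthesis of diphthamide, went from 40.1, 2.57 and 13.1 CPM to 5.15, 7.23 and 7.2 CPM (-1.54 ± 0.64, adjusted p = 0.236), and -0.41 remained without WT saline replicate 1.

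Dnajc4 and Dnajb3 kept most of their difference without that library (-0.82 and -1.55), although the calls were lost. Dnajc4 had 20.9, 11.8 and 14.9 CPM in WT saline and 8.66, 8.25 and 6.32 CPM in WT ethanol libraries (-1.04 ± 0.38, adjusted p = 0.212). Dnajb3, a J protein known mainly from testis, had 7.17, 9.26 and 4.46 CPM in WT saline and 1.70, 3.34 and 1.76 CPM in WT ethanol libraries (-1.58 ± 0.62, adjusted p = 0.22). In both genes every saline library lay above every ethanol library. The groups did not overlap in 9 of the 12 called members and in 14 of the 61 tested, against 19.5% of all genes tested.

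Whether members passed the threshold depended on single libraries. Without WT saline replicate 1 or without WT ethanol replicate 4, 0 of the members were called, without WT ethanol replicate 14 there were 2, and without the shallow WT saline replicate 3 there were 29. The log2 fold changes moved less in several of them: with any 1 library left out Dnajb12 ran from 1.10 to 1.84, Dnajc18 from 0.62 to 0.75, Dnajc1 from 1.08 to 2.19 and Dnajb3 from -1.97 to -1.39.

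**Figure D2:**
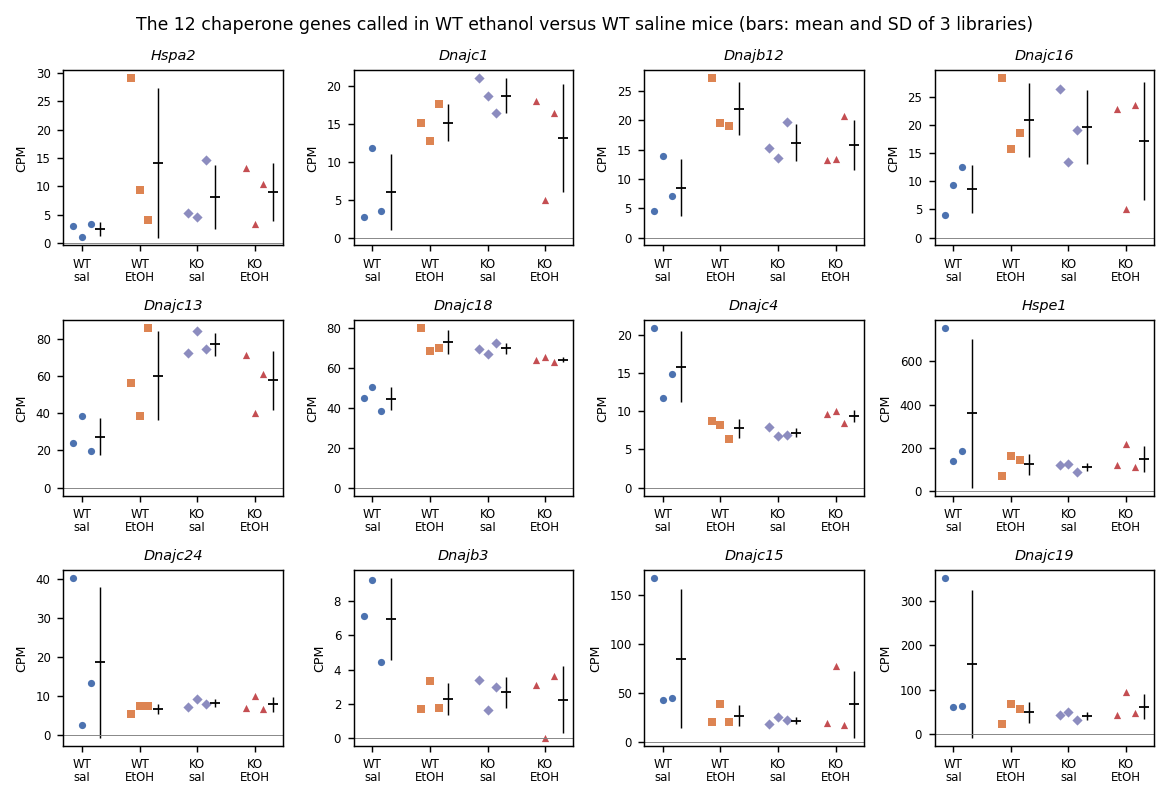
TMM-scaled CPM of the 12 members called in WT ethanol against WT saline mice, 1 point per library, with the mean and SD of each group beside the points. Dnajb12, Dnajc18 and Dnajc4 separate the WT groups, while WT saline replicate 1 carries the high WT saline means of Hspe1, Dnajc19, Dnajc15 and Dnajc24.

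Among the 12 heat-inducible members, 0 were called higher and 1 lower, Hspe1, in WT ethanol mice. Over all genes 12.1% were called higher and 10.4% lower, so these counts are near the background. Of the 12 values 6 were positive and 6 negative. The list includes Hspa8 and Hsp90ab1, which are described here as constitutive. The list's median log2 fold change was -0.13, beside 0.06 over all genes, and it turned positive without TMM factors (0.35), in RPKM (0.16) and without WT saline replicate 1 (0.28). Hspa8 had 5160, 4740 and 4660 CPM in WT saline and 2030, 2600 and 1970 CPM in WT ethanol libraries. Every saline library was above every ethanol library, but the difference did not pass the test (log2 fold change -1.14 ± 0.65, adjusted p = 0.351), and its sign depended on the scale, with -0.70 without TMM factors and 0.46 in the deposited RPKM. On the RPKM scale Hspa8 stood at 559, 1790 and 1350 in WT saline and 1960, 1210 and 1480 in WT ethanol libraries, which overlapped.

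The HSP90 genes did not pass the test either. Hsp90aa1, the inducible cytosolic form, had 2010, 1470 and 892 CPM in WT saline and 1290, 2500 and 1160 CPM in WT ethanol libraries (0.17 ± 0.55, adjusted p = 0.887). Hsp90ab1, the constitutive form, had a log2 fold change of 0.16 ± 0.58 (adjusted p = 0.902), and Hsp90b1, the ER form, of 0.51 ± 0.46 (adjusted p = 0.555). In each of them the WT groups overlapped in CPM. In the deposited RPKM Hsp90aa1 had 224, 452 and 199 in WT saline and 836, 879 and 470 in WT ethanol libraries, without overlap. The other HSP90 genes overlapped on that scale too. Over the alternative settings Hsp90aa1 ran from -0.26 to 1.37, Hsp90ab1 from -0.23 to 1.54 and Hsp90b1 from 0.29 to 1.11.

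The remaining heat-inducible genes did not pass the test. Dnajb1, the J protein most sharply induced by Hsf1, had 71.7, 62.2 and 54.8 CPM in WT saline and 50.8, 57.6 and 38.5 CPM in WT ethanol libraries (-0.36 ± 0.30, adjusted p = 0.527). Hsph1, the inducible HSP110, had a value of -0.47 ± 0.38 (adjusted p = 0.513), and Dnaja1 of -0.36 ± 0.51 (adjusted p = 0.718). Hspb1, the classical small heat shock protein, ranged from 0.527 to 7.87 CPM in WT ethanol libraries (0.75 ± 0.93, adjusted p = 0.677), and the sign turned without replicate 4 (-1.74). Hspa1a had 0.36 ± 0.84 (adjusted p = 0.845) and Hspa1b -0.41 ± 0.80 (adjusted p = 0.812), on the few counts given above. The HSP110 gene Hspa4l came nearest to the threshold of the genes not called (0.73 ± 0.37, adjusted p = 0.307). It had 45.4, 18.5 and 41.2 CPM in WT saline and 64.7, 60.8 and 49.9 CPM in WT ethanol libraries, without overlap.

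Other core members outside that list also did not pass. The mitochondrial HSP70 Hspa9 had a log2 fold change of 0.06 ± 0.34 (adjusted p = 0.939) and the HSP110 gene Hspa4 of 0.31 ± 0.37 (adjusted p = 0.663). The synaptic pair Dnajc5 and Dnajc6 had 0.23 ± 0.35 (adjusted p = 0.734) and 0.04 ± 0.41 (adjusted p = 0.97), and Dnajb6, which carries the element shown above, -0.62 ± 0.46 (adjusted p = 0.473).

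**Figure D3:**
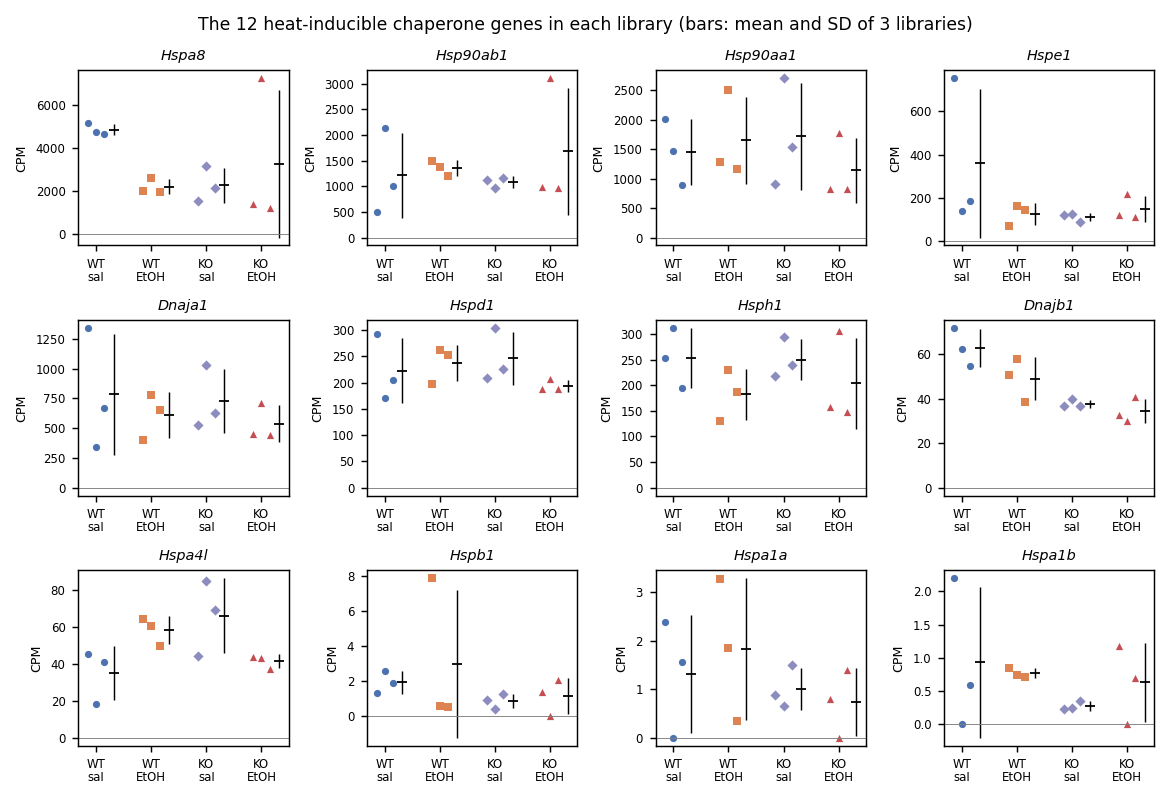
TMM-scaled CPM of the 12 heat-inducible members by group, 1 point per library, with the mean and SD beside the points. Hspa8 is highest in the 3 WT saline libraries and in KO ethanol replicate 12 (7240 CPM), and Hspa1a and Hspa1b reach at most 3.28 and 2.2 CPM.

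In KO saline against WT saline mice, which compares genotypes without ethanol, 23 of 61 members were called, with 8 higher and 15 lower. Over all genes 25.8% were called, with 12.4% higher and 13.4% lower, beside the members' 37.7%. At an unadjusted p under 0.05 there were 18 members against 19.6% of all genes, and at an adjusted p under 0.05 there were 0 against 0.0543% of all genes (8 genes, edgeR). The members' median log2 fold change was -0.05 beside 0.04 over all genes. Without TMM factors 14 were higher and 4 lower. This comparison uses the same WT saline libraries as the ethanol comparison in WT mice, so the 2 are not independent. The groups did not overlap in 18 of the 61 members, against 22.9% of all genes.

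The small heat shock proteins showed the most uniform direction of the roles. Of the 6 tested 5 were called lower in KO saline mice, beside 13.4% of all genes lower. Their median log2 fold change was -1.57, beside 0.04 over all genes. Their transcripts were short, with lengths from 608 to 1816 bases. In this comparison the log2 fold change rose with length over all genes (Spearman correlation 0.55). Hspb8, which works with Bag3 in the removal of damaged proteins, had 38.4, 1.54 and 24.6 CPM in WT saline and 3.98, 2.64 and 6.49 CPM in KO saline libraries (-2.33 ± 0.77, adjusted p = 0.177). Hspb3, best known from muscle, had 66.9, 41.1 and 18.7 CPM in WT saline and 23.4, 6.5 and 2.46 CPM in KO saline libraries (-1.96 ± 0.94, adjusted p = 0.263). In both genes the ranges overlapped.

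Hspb6, known from smooth muscle, had 9.00, 12.9 and 9.36 CPM in WT saline and 6.71, 4.16 and 5.70 CPM in KO saline libraries, without overlap (-0.90 ± 0.42, adjusted p = 0.255). Hspb2 was lower by -1.73 ± 0.81 (adjusted p = 0.254) on 41 counts or fewer per library. Hspb11, a subunit of the transport machinery of cilia rather than a typical small heat shock protein, had 54.4, 9.26 and 10.8 CPM against 9.44, 12.9 and 5.70 CPM (-1.42 ± 0.61, adjusted p = 0.231). Its value was -0.13 without WT saline replicate 1 and turned positive (0.29) once length and GC trends were removed. The role had 1 call without TMM factors, in RPKM or without the length and GC trends, and 0 without WT saline replicate 1 or KO saline replicate 8, with negative medians throughout (-0.94, -1.14, -0.75, -1.41 and -1.50). The red blood cell markers and 4 of 7 microglial markers were also lower in these mice, and their part was not tested.

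The members that were higher in KO saline mice were again J proteins of membranes, with HSP70 relatives. Dnajc13 had 72.7, 84.4 and 74.5 CPM in KO saline libraries, above every WT saline library (1.51 ± 0.39, adjusted p = 0.16). Dnajc1 had 21.1, 18.7 and 16.5 CPM in KO saline against 2.76, 11.8 and 3.57 CPM in WT saline libraries (1.75 ± 0.55, adjusted p = 0.176). Hspa12a, a distant HSP70 relative abundant in brain, had 227, 227 and 237 CPM in KO saline against 84.2, 173 and 86.2 CPM in WT saline libraries (1.02 ± 0.36, adjusted p = 0.18). All 3 genes separated the groups.

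Dnajc18 had 69.6, 66.9 and 72.4 CPM in KO saline libraries (0.65 ± 0.28, adjusted p = 0.227), with none as low as the WT saline libraries. The other members higher in KO saline mice were Dnajb12 (0.98), Dnajc16 (1.18), Hspa2 (1.58) and the HSP110 gene Hspa4l (0.91 ± 0.37, adjusted p = 0.213), with adjusted p from 0.213 to 0.255. Hspa2 was at 0.84 (adjusted p = 0.631) without KO saline replicate 9. Hspa4l was at 0.58 without WT saline replicate 3 and at -0.06 once length and GC trends were removed.

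Besides the small heat shock proteins, 10 members fell in KO saline mice. Dnajb1 had 36.7, 39.7 and 36.6 CPM in KO saline libraries, below every WT saline library (-0.74 ± 0.30, adjusted p = 0.211). Dnajb11, a J protein of the ER lumen that delivers clients to the ER HSP70, fell from 79.0 CPM and Dnajc9, a histone chaperone, from 43.4 CPM on average, by -0.61 ± 0.29 (adjusted p = 0.266) and -0.62 ± 0.31 (adjusted p = 0.282). Hspe1 (-1.71), Dnajc19 (-1.95) and Dnajc15 (-1.99 ± 0.63, adjusted p = 0.176) were again lower, and without WT saline replicate 1 they stood at -0.57, -0.61 and -1.04. Dnajc4 (-1.15), Dnajb3 (-1.35), Dnajc24 (-1.23) and Hspa1b (-1.90) completed the calls, with Dnajc24 at -0.09, Hspa1b at -0.74 and Dnajc9 at -0.41 without WT saline replicate 1. Hspa8 had 1530, 3150 and 2140 CPM in KO saline libraries, below every WT saline library, and did not pass the test (-1.09 ± 0.65, adjusted p = 0.359).

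The number past the threshold again varied with the libraries. Without WT saline replicate 1, KO saline replicate 8 or KO saline replicate 9 there were 0. Without KO saline replicate 7 there were 11 and without WT saline replicate 13 there were 15. Without KO ethanol replicate 10, which is in neither group compared but shares the filter, scaling and spread, there were 14. With any 1 library left out Dnajc13 ran from 1.32 to 1.79, Dnajc1 from 1.40 to 2.52, Hspa12a from 0.83 to 1.40, Dnajb1 from -0.83 to -0.64 and Dnajc18 from 0.55 to 0.71.

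**Figure D4:**
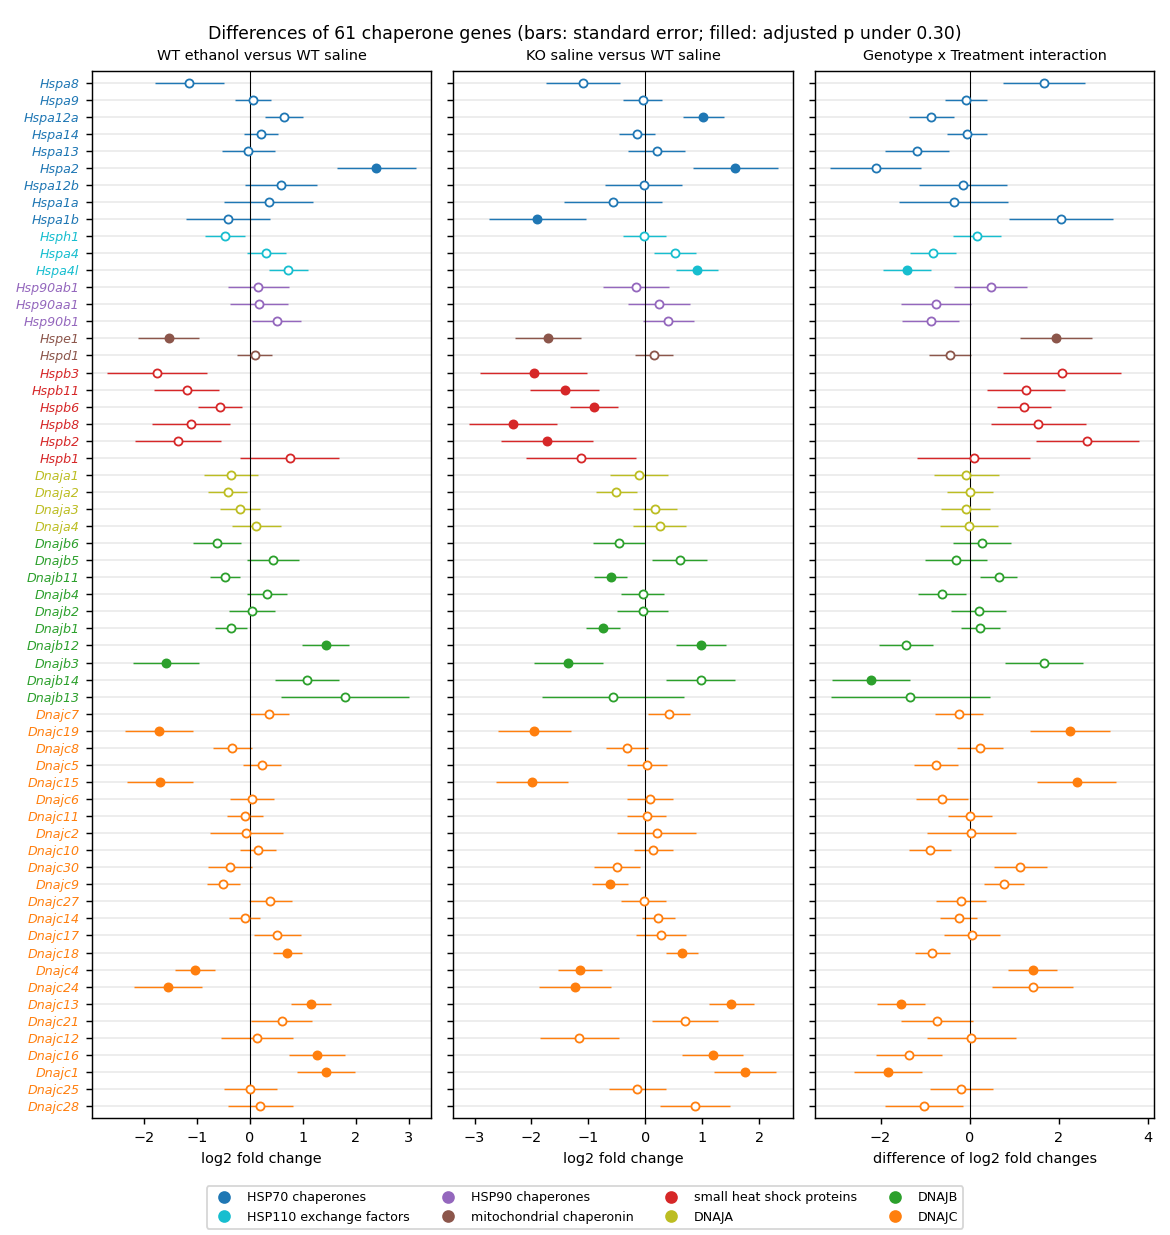
Log2 fold change and SE of the 61 tested members in 3 comparisons, ordered and coloured by role; filled points have an adjusted p under 0.30. The small heat shock proteins lie left of 0 in KO saline against WT saline mice, and the HSP90 and DNAJA genes have open points in all 3 panels.

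Ethanol against saline in KO mice gave 0 called members, with 0.0% of all genes called (edgeR). At an unadjusted p under 0.05 there were 2 members, against 3.15% of all genes. DESeq2 called 3 of all genes and limma 0, with 0 members by either tool. The members with the smallest p were Hspa13, an HSP70 of the ER, Dnajc10, an ER reductase with a J domain, and Hspa1b. Hspa13 had 35.8, 133 and 86.8 CPM in KO saline and 31.4, 43.5 and 36.3 CPM in KO ethanol libraries (-1.22 ± 0.52, unadjusted p = 0.0326, adjusted p = 0.999, edgeR). Dnajc10 had 61, 135 and 90.4 CPM against 57.6, 43.5 and 68.6 CPM (-0.74 ± 0.34, unadjusted p = 0.046, adjusted p = 0.999, edgeR). Both rested on KO saline replicate 8, without which they were -0.75 and -0.41. Hspa1b had a value of 1.64 ± 0.85 (adjusted p = 0.999) on at most 15 counts.

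In these mice Hspa8 had 1400, 7240 and 1210 CPM after ethanol, and the high value was the shallow replicate 12. Dnajc18 had 63.7, 65.2 and 62.9 CPM in KO ethanol libraries, just below every KO saline library (-0.13 ± 0.28, adjusted p = 0.999). Its KO libraries of either treatment lay above every WT saline library.

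KO ethanol against WT ethanol mice likewise gave 0 called members and 0.0% of all genes (edgeR), and DESeq2 called 3 of all genes and limma 0, with 0 members by either tool. At an unadjusted p under 0.05 there was 1 member, Dnajc10, against 3.24% of all genes. Dnajc10 had 57.6, 43.5 and 68.6 CPM in KO ethanol and 107, 96.4 and 86.2 CPM in WT ethanol libraries, which did not overlap (-0.76 ± 0.34, unadjusted p = 0.0427, adjusted p = 0.982, edgeR). Dnajc5 had -0.73 ± 0.35 and the ER membrane J protein Dnajb14 -1.24 ± 0.63, both at an adjusted p of 0.982.

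The Genotype x Treatment interaction subtracts the log2 ethanol difference of WT mice from the one of KO mice. It called 8 of 61 members, or 13.1%, of which 4 were positive and 4 negative. Over all genes 11.1% were called, with 5.64% positive and 5.43% negative, and 15.2% had an unadjusted p under 0.05, beside 10 members. The median was -0.08 over the members and -0.11 over all genes. The negative calls were Dnajc13 (-1.55 ± 0.54, adjusted p = 0.252), Hspa4l (-1.41 ± 0.53, adjusted p = 0.266), Dnajb14 (-2.22 ± 0.88, adjusted p = 0.279) and Dnajc1 (-1.84 ± 0.76, adjusted p = 0.292). The positive calls were Dnajc15 (2.40 ± 0.88, adjusted p = 0.265), Dnajc4 (1.41 ± 0.54, adjusted p = 0.27), Dnajc19 (2.25 ± 0.89, adjusted p = 0.28) and Hspe1 (1.94 ± 0.81, adjusted p = 0.294). Without WT saline replicate 1 the values of Dnajc15, Dnajc19 and Hspe1 were 1.46, 0.92 and 0.82.

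In Dnajc13 the 4 group means were 27.4, 60.3, 77.2 and 57.7 CPM in WT saline, WT ethanol, KO saline and KO ethanol. In Dnajc4 they were 15.9, 7.74, 7.19 and 9.39 CPM. In both genes the WT saline mean stood apart from the other group means. The libraries of Dnajc13 were closer, with WT saline replicate 3 at 38.6 CPM, WT ethanol replicate 5 at 38.7 CPM and KO ethanol replicate 12 at 40.1 CPM.

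Dnajb14 had 3.86, 0.514 and 4.16 CPM in WT saline, 8.89, 6.95 and 3.69 CPM in WT ethanol, 3.25, 7.38 and 7.63 CPM in KO saline and 2.92, 1.67 and 2.98 CPM in KO ethanol libraries. Its lowest values were in KO ethanol mice and in the shallow WT saline replicate 3. All 8 calls fell short of the threshold without KO ethanol replicate 12, WT saline replicate 1, WT ethanol replicate 4 or 14, or KO saline replicate 8 or 9, each of which left 0 members called. Without WT saline replicate 3 there were 21, without WT saline replicate 13 there were 5, without KO ethanol replicate 10 there were 3, and without WT ethanol replicate 5 there were 2. With any 1 library left out Dnajc13 ran from -1.79 to -1.14, Hspa4l from -1.59 to -1.04, Dnajb14 from -2.55 to -1.75 and Dnajc4 from 1.19 to 1.63. After the removal of length and GC trends 0 were called, and Hspa4l turned to 0.26.

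Grouped by compartment, the 10 ER members held 4 of the 6 members that rose in WT ethanol mice (Dnajb12, Dnajc1, Dnajc16 and Dnajc18), and 0 of the 10 fell, beside 12.1% of all genes higher and 10.4% lower. Their median log2 fold change was 0.61, beside 0.06 over all genes, and it was 0.15 after the length and GC trends were removed. In KO saline against WT saline mice 4 of the 10 were higher and 1, Dnajb11, lower, with a median of 0.52 that became -0.01 without those trends. The ER luminal folding genes Hsp90b1 and Dnajb11 were not called in WT ethanol mice. Of the unfolded protein response genes outside the rule, Hspa5, Dnajb9 and Dnajc3, 0 were called in the ethanol comparison in WT mice or in the genotype comparison under saline. Dnajc3 had 0.55 ± 0.40 (adjusted p = 0.463) and Dnajb9 -0.56 ± 0.57 (adjusted p = 0.612) in WT ethanol mice.

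Of the 9 mitochondrial members 3 fell (Hspe1, Dnajc15 and Dnajc19) and 0 rose in WT ethanol mice, beside 10.4% of all genes lower, with a median of -0.18 that was 0.21 without TMM factors. Without WT saline replicate 1 these 3 had 0 calls and stood at -0.40, -0.75 and -0.38. Of the 3 vesicle and endosome members only Dnajc13 was called, and it rose. The 4 DNAJA genes and the 3 HSP90 genes had 0 calls in either comparison with WT saline mice.

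Other parts of the chaperone machinery were counted from lists of the same kind. All 14 subunits of the TRiC/CCT chaperonin and its partner prefoldin, which fold actin and tubulin, had negative values in WT ethanol mice, and 8 of them (57.1%) fell, beside 10.4% of all genes lower, with a median of -1.06 beside 0.06 over all genes. The called subunits were Cct2, Cct4, Cct7, Pfdn1, Pfdn2, Pfdn4, Pfdn5 and Pfdn6. Pfdn2 had 93.7, 117 and 50.8 CPM in WT saline and 31.6, 38.9 and 31.6 CPM in WT ethanol libraries (-1.35 ± 0.41, adjusted p = 0.189), without overlap. Pfdn6 had 187, 170 and 76.1 CPM against 35.8, 58.2 and 58.0 CPM (-1.51 ± 0.54, adjusted p = 0.208), also without overlap. In KO saline against WT saline mice 8 of 14 were also lower, with a median of -0.98. The list kept a negative median in WT ethanol mice without TMM factors (-0.54), in RPKM (-0.34), without length and GC trends (-0.91) and without WT saline replicate 1 (-0.68), and it had 0 calls in RPKM, without WT saline replicate 1 and without WT ethanol replicate 4 (median -0.99).

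Of 29 cochaperones of HSP70 and HSP90, 0 rose and 5 fell in WT ethanol mice. The 17.2% that fell stands beside 10.4% of all genes lower, while 12.1% of all genes were higher. In both directions together 22.5% of all genes were called. The median was -0.24 and turned to 0.27 without TMM factors and to 0.04 in RPKM. None of the 5 was called without WT saline replicate 1 or WT ethanol replicate 4, and 1 was without KO saline replicate 8. Ptges3, the p23 cochaperone of HSP90, had 392, 320 and 255 CPM in WT saline and 141, 248 and 140 CPM in WT ethanol libraries (-0.87 ± 0.39, adjusted p = 0.256). Bag1, a nucleotide exchange factor of HSP70, had 286, 255 and 267 CPM against 83.1, 170 and 51.8 CPM (-1.40 ± 0.63, adjusted p = 0.257). In both genes the groups did not overlap. In KO saline against WT saline mice 2 cochaperones were higher and 5 lower, or 24.1% called beside 25.8% of all genes.

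The crystallins Cryab and Cryaa, small heat shock proteins named otherwise, both fell in WT ethanol mice. Cryab had 193, 85.4 and 119 CPM in WT saline and 10.2, 32.9 and 67.1 CPM in WT ethanol libraries (-1.86 ± 0.79, adjusted p = 0.241). Cryaa was at or under 2.39 CPM in every library (-2.30 ± 0.79, adjusted p = 0.208). Of the heat shock factors and their regulators 4 were tested and 0 called in either comparison, and the 2 with the smallest p in WT ethanol mice were Hsf2bp (-1.40 ± 0.93, adjusted p = 0.42) and the Hsf1 inhibitor Hsbp1 (-0.43 ± 0.47, adjusted p = 0.64).

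The called members also differed in transcript length. The 6 members that rose in WT ethanol mice had a median length of 5280 bases (2240 to 8010) and the 6 that fell 946 bases (737 to 6190), against 2590 bases in the members not called. Over the 61 members the Spearman correlation of log2 fold change with length was 0.50, and over 14581 genes it was 0.48. In KO saline against WT saline mice it was 0.58 over the members and 0.55 over all genes, and for the interaction -0.67 and -0.61. These are descriptions over genes that share the same libraries, and with lengths implied by the deposited counts and RPKM the member values were 0.51, 0.66 and -0.68.

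Dnajc15 was the longest by annotation of the members that fell, with 6193 bases, while its deposited values imply 788 bases, and Dnajb14 (9477 against 2300 bases) and Hspa4l (9479 against 4210 bases) also differed. Library by library, the slope of log2 CPM on log2 length over all genes was -0.549, -0.034 and -0.287 in WT saline, 0.315, 0.036 and 0.097 in WT ethanol, 0.115, 0.253 and 0.267 in KO saline and 0.076, -0.392 and 0.103 in KO ethanol libraries. All 3 WT saline libraries were below all WT ethanol and KO saline libraries, and KO ethanol replicate 12 was with them. With length and GC trends removed, Dnajb12, Dnajc1, Dnajc15 and Hspa2 were still called of the 12 in WT ethanol mice, where 10 members were called in all. In the genotype comparison 7 of the 23 were still called, Dnajb1, Dnajb12, Dnajc1, Dnajc13, Dnajc15, Hspa1b and Hspb8.

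**Figure D5:**
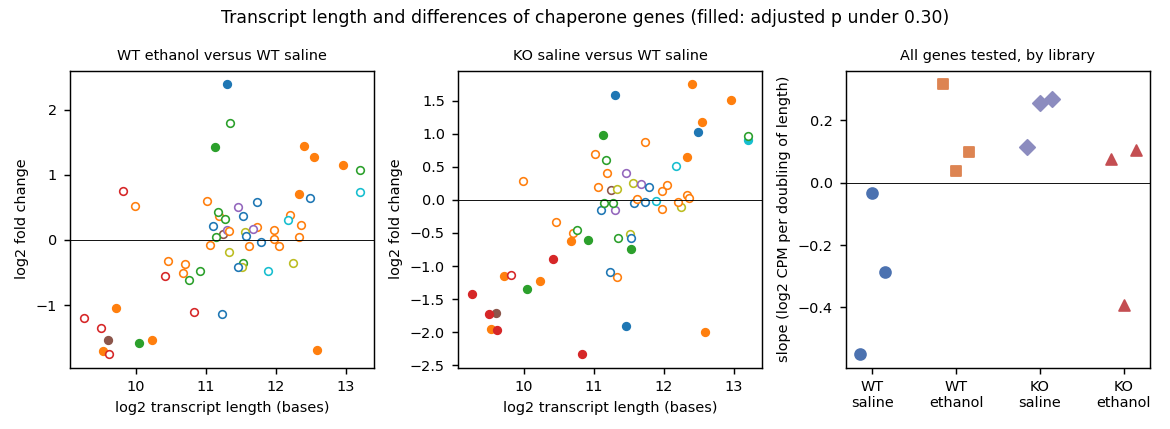
Left and middle, log2 fold change of each member against log2 transcript length, filled where called; right, the slope of log2 CPM on log2 length over all tested genes in each library. Longer members lie higher in both comparisons, and the WT saline libraries have the lowest slopes together with 1 KO ethanol library.

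Of the members 19 have several RefSeq transcripts, between which the authors' software divided the reads. The Dnajc1 transcript NM_001190817 had 0.569, 0 and 0.21 CPM in WT saline and 3.28, 2.63 and 5.33 CPM in WT ethanol libraries (3.55 ± 0.91, adjusted p = 0.115). In Dnajc19 the main transcript NM_026332 fell in WT ethanol mice (-1.78 ± 0.65, adjusted p = 0.198) while NM_001286972 rose (2.23 ± 0.98, adjusted p = 0.253), from at most 1.45 CPM to between 1.43 and 5.56 CPM. Hspa2 was called through NM_008301 (3.52 ± 0.97, adjusted p = 0.132). In all, 14 members had a called transcript in WT ethanol mice, of which 11 were called from the sum, and Dnajb2, Dnajc12 and Hspa14 were called only by a transcript. Of the 88 member transcripts tested 15 were called, beside 21.5% of all 21715 transcripts tested.

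Some members share sequence with other genes, so that 75-base reads could have been divided between them. Of all 75-base windows of its annotated transcripts, Hspa8 shared 68.6% with 11 other genes, of which 1 processed pseudogene alone held 64.3%, and Hspa1a shared 52.7% with Hspa1b. Hspa14 shared 74.4% with 1 other gene, and Hspb2 shared 21.4% with its neighbour Cryab, which was itself lower in KO saline mice. Hsp90aa1 shared 53.1%, Hspb1 57.7%, Hspd1 33.7% and Hspe1 29.1%. The shares include windows on either strand and at any position, overlapping genes among them. They do not measure how far the counts are off, which was not tested. Dnajb12, Dnajc16, Dnajc18, Dnajc15 and Hspa2 shared 0.0%.

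The members whose log2 CPM followed Hspa8 most closely over the 12 libraries were Dnajc15 (Pearson r = 0.85), Dnajb11 (0.84) and Hsph1 (0.71), and over the 10 libraries named with P the same values were 0.84, 0.81 and 0.56. The order depended on the 2 shallow libraries, since over those 10 Dnaja2 was highest at 0.88 (0.52 over 12) and Dnajb6 stood at 0.82 (0.40 over 12). The libraries share their scaling and their length slopes, and these correlations are given as a description. Hspa8 alone took 34.5%, 37.1% and 41.5% of the members' summed CPM in WT saline libraries, 21.5% to 21.9% in WT ethanol, 19.4% to 24.1% in KO saline, and 19.5%, 42.2% and 17.4% in KO ethanol libraries. On this measure WT saline libraries and KO ethanol replicate 12 were again the ones apart.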

How the data were processed

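Stranded total RNA-Seq libraries (single 75-base reads) of 12 mice were used. The authors filtered reads by quality, aligned them with TopHat (Bowtie2) to mm10, and used Partek Flow to quantify each RefSeq transcript. Its version, counting settings and use of strand are not given in the sources used here. The deposited estimated counts per transcript are unscaled, and the deposited RPKM values have nearly the same sorted values in every library, by a scaling whose method is not given in the sources used here. Which libraries came from laser-dissected and which from punched tissue, and any batch, are not given in the labels.

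Counts were summed per symbol and rounded. They were tested in edgeR 4.0.16 (R 4.3.3) with filterByExpr, TMM factors and a quasi-likelihood model of 4 group means, two-sided, with Benjamini-Hochberg adjustment over 14739 genes. Calls use the adjusted level of the study, 0.30. Replicates are separate mice. RPKM served for levels between genes, and limma 3.58.1 tested log2(RPKM + 1) as an alternative. Other alternatives were DESeq2 1.42.0, no TMM factors, 2 other count filters, single transcripts, only the groups compared, removal of length and GC trends (splines with 5 degrees of freedom), and libraries left out. The steps were tested on simulated data. Transcript lengths were taken from GENCODE on GRCm38. Python 3.11.15 made the summaries.

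The members, their lists and the heat shock element were chosen with earlier results of these data known. Genes named are a core list, Dnajc18, the 3 members with the smallest p in each comparison, the 2 leading genes of each other list, and the 3 members most like Hspa8. All other called members and list genes were added after their values were seen.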

Additional observations from a re-analysis of the deposited data

Results flagged for a closer look

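The ethanol effect was called as different between KO and WT mice in 8 of 61 members (13.1%), by the interaction test at an adjusted p under 0.30 (edgeR). Over all genes 11.1% were called, so the count is near the background. The difference of log2 fold changes was -1.55 in Dnajc13, -1.41 in Hspa4l, -2.22 in Dnajb14 and -1.84 in Dnajc1, and it was 2.40 in Dnajc15, 1.41 in Dnajc4, 2.25 in Dnajc19 and 1.94 in Hspe1. With the shallow KO ethanol replicate 12 left out, 0 members were called, while the values were -1.37, -1.44, -2.12, -1.58, 1.47, 1.37, 1.84 and 1.57 in the same order, of which only Dnajc15 moved by over 1.5 times. Without WT saline replicate 1, Dnajc15, Dnajc19 and Hspe1 were at 1.46, 0.92 and 0.82, and 0 members were called. The same held without WT ethanol replicate 4 or 14, or KO saline replicate 8 or 9. With length and GC trends removed, or by limma on RPKM, 0 members were called too.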

How the results depend on the processing

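No paired analysis was run, since the groups share no replicate numbers and the labels give no litter. Whether littermates fell within or across groups is not known. Over 65 fold changes of named members 1281 alternative values were computed, of which 877 kept direction and side of the threshold, 346 lost the call, 16 gained one and 42 turned sign, and the causes were not tested. Of the 61 members, those called in WT ethanol against WT saline numbered 12, and 7 with at least 10 counts in every library, 1 by limma on RPKM, 32 without the 2 libraries named with L, 0 with only the groups compared in the fit, and 0 to 29 with 1 library left out. In KO saline against WT saline the 23 became 10, 6, 35 and 12 under those settings, 9 with length and GC trends removed, and 0 to 34 with 1 library left out. The 8 interaction calls became 14 by DESeq2, 13 without TMM factors, 4 with at least 1 count in any library, 0 by limma, 23 without the libraries named with L, 0 with trends removed and 0 to 21 with 1 library left out. Over all genes the 3310, 3799 and 1632 calls of these comparisons became 356, 419 and 16 by limma, 8295, 8435 and 4322 without the libraries named with L, 39 and 2531 (first 2) with only the groups compared, 2092 and 2706 with at least 10 counts in every library for the same 2, 2693 by DESeq2 and 2623 by transcript for the interaction, and 30 with trends removed for the interaction. The KO ethanol comparisons had 0 calls of members under every setting run. Signs that turned in WT ethanol against WT saline (log2) were, in RPKM, Hspa8 0.46, Hspa1a -0.03, Hspb1 -0.25, Dnaja1 0.35 and Dnajb6 0.26. Without the libraries named with L they were Hspa1a -0.12, Hspa9 -0.14, Hspd1 -0.14 and Dnajc6 -0.33. With trends removed they were Hspa1a -0.52, Hspa9 -0.13, Hspa4 -0.19, Hsp90aa1 -0.02, Dnajc5 -0.38 and Dnajc6 -0.56, and Hspa4l in the interaction (0.26) and in KO saline against WT saline (-0.06), where Hspb11 was 0.29. Without TMM factors they were Hspa1b 0.26, Dnaja1 0.23 and Dnajb1 0.1, and Dnajc6 was -0.01 with only the groups compared and -0.62 by transcript. With 1 library left out, Hspa1a ran from -0.38 to 0.80, Hspa1b from -0.82 to 0.74, Hspa9 from -0.14 to 0.21, Hsp90aa1 from -0.26 to 0.46, Hsp90ab1 from -0.23 to 0.79, Hspb1 from -1.74 to 1.24, Hspd1 from -0.11 to 0.31, Dnaja1 from -0.76 to 0.25 and Dnajc6 from -0.30 to 0.20. Depth limits the low members most, since KO ethanol replicate 12 had at least 10 counts in 39 of the 64 members.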
